A study of Mus musculus with 8 samples.

Results

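The genes of the mitochondrial respiratory chain were followed in OP9 bone marrow stroma cells, in OP9 cells grown with pre-B cells, and in NIH3T3 and MC3T3 cells. The members were all probe sets of the array whose single gene symbol in the platform annotation began with Nduf, with Uqcr, with Sdh and a letter from a to d, or with Cox4 to Cox8. This rule used only names and no measured value. It found 154 of 45101 probe sets, which belonged to 77 of 18194 named genes. Of these 77 genes, 69 reached an intensity of 100 on at least 2 of the 8 arrays and were tested among 10084 genes, and the other 8 are given by their levels near the end. The tested genes belonged to complex I (41 genes), complex II (8), complex III (8) and complex IV (12). The gene Ndufa4 is counted here with complex IV, to which its protein is now assigned.

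The respiratory chain passes electrons from NADH and succinate to oxygen in the inner membrane of the mitochondrion. Complex I (NADH dehydrogenase, the Nduf genes) and complex II (succinate dehydrogenase, the Sdh genes) feed electrons to ubiquinone, complex III (the Uqcr genes) hands them to cytochrome c, and complex IV (cytochrome c oxidase, the Cox genes) to oxygen. Complexes I, III and IV pump protons, and ATP synthase uses the gradient. Core subunits include those that carry the redox centres, though not every core subunit holds one. Accessory subunits surround them, and assembly factors help to build a complex and then leave it. Subunits encoded by mitochondrial DNA are not among these symbols. Fat cells raise their content of mitochondria as they mature, and OP9 cells readily form fat cells.

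Each of the 4 groups was measured on 2 Affymetrix mouse arrays. OP9 is a stroma line of B6C3F1 origin per the labels, which name only an OP9 line with the red fluorescent protein mStrawberry, kept in OptiMEM with fetal calf serum. The co-culture was of OP9 with 230-238, a pre-B cell line that itself grows in RPMI, and the red cells were sorted before RNA was made. The OP9 arrays without pre-B cells are labelled as a plain OP9 culture, while the paper describes controls held in conditioned medium. Their own labels do not say whether these cells carried mStrawberry or were sorted, so a difference in either cannot be told apart from the effect of co-culture. NIH3T3, a line of embryonic fibroblasts, and MC3T3, a line with features of osteoblasts, are given as Balb/c and were grown in Dulbecco's medium with the same serum. One MC3T3 array, replicate 2, is described as sorted cells and the other as a culture. OP9 cells therefore differed from both other lines in line, strain and medium at once, and these cannot be told apart. Arrays of 1 group are labelled as biological replicates, but nothing says that they came from separate cultures. A p-value here therefore speaks only of array-to-array spread, which could be technical, and precision is limited by having 2 arrays in each group.

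The values are normalized intensities on a linear scale, and differences are given on the log2 scale as the first group minus the second. Where several probe sets named a gene, the brightest on average was used. A gene passed the test at an adjusted p below 0.05 from limma with the Benjamini and Hochberg adjustment over all 10084 genes. The array medians over all probe sets lay between 41.8 and 45.0. Between the 2 arrays of a group, the median absolute log2 difference of the members was 0.062 for OP9, 0.046 for the co-culture, 0.095 for NIH3T3 and 0.059 for MC3T3, and for all genes tested it was 0.069, 0.069, 0.14 and 0.088. Markers of the lines were read first. Adiponectin (Adipoq) was at 10697 and 10639 on the OP9 arrays, at 358 and 337 in co-culture, and below 14 on all 4 arrays of the other lines. Thy1, 1 of 5 markers of mesenchymal cells read, was at 1255 and 1104 in MC3T3, against 31 or less in every other array. Of the other markers of this list, Vim was also higher in MC3T3 than in OP9, while Col1a1, Col1a2 and Pdgfrb were lower.

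Co-culture with pre-B cells was compared with OP9 alone to ask how the pre-B cells affect the stroma. The respiratory chain genes were mostly a little lower in co-culture, with 61 of the 69 members below 0 and a median log2 difference of -0.17, against -0.053 over all genes tested. Of the 69 members, 24 fell (34.8%) and 2 rose, while over all genes tested 26.2% passed downwards and 16.6% upwards. None changed 2-fold, a size that 2.97% of all genes reached downwards and 2.71% upwards. At an unadjusted p below 0.05, 33 members were lower and 2 higher. By complex, 15 of 41 members of complex I fell (median -0.19), as did 2 of 8 of complex II (median -0.16), 4 of 8 of complex III (median -0.21) and 3 of 12 of complex IV (median -0.10), and both members that rose belonged to complex IV.

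**Figure D1:**
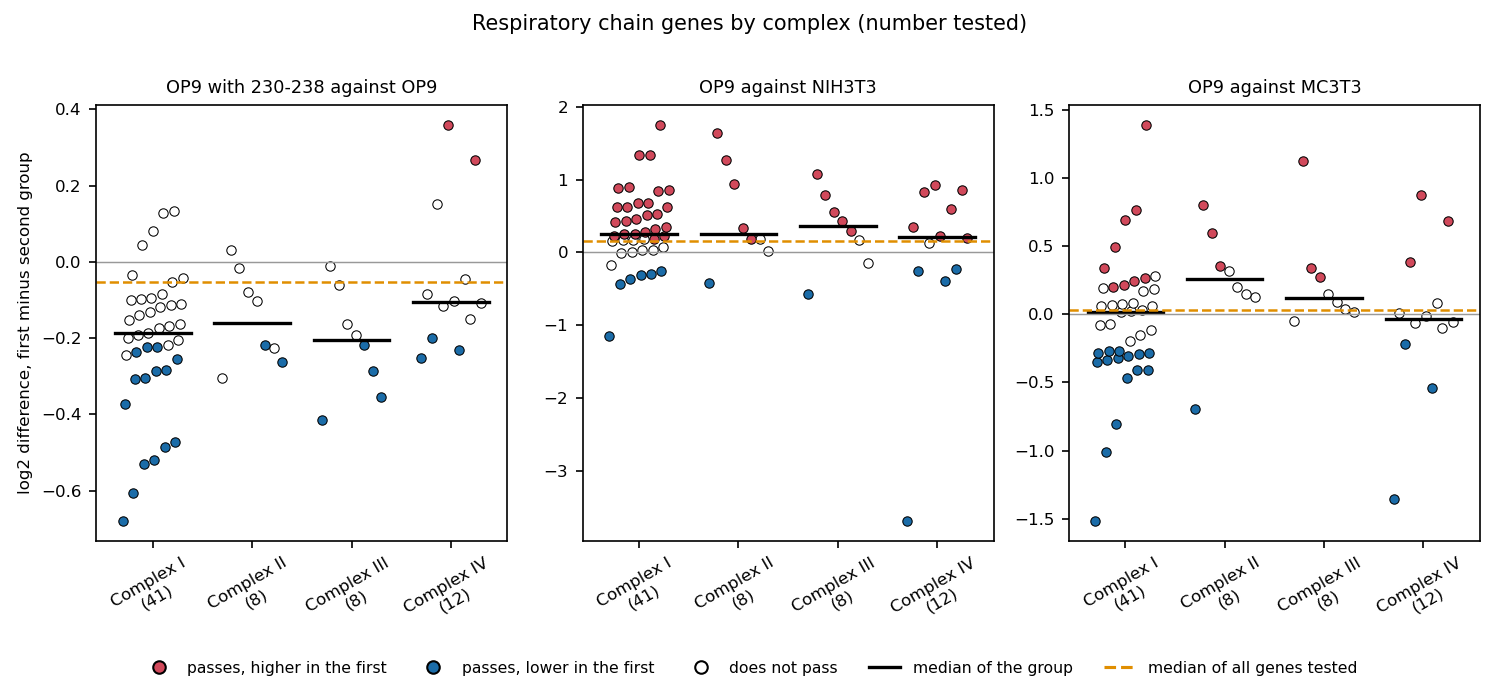
Log2 differences of the 69 tested respiratory chain genes, grouped by complex, in the 3 comparisons (y axes differ in range; each point is a gene, black bars are medians of a complex, the dashed line is the median of all genes tested). In co-culture most points lie below the dashed line at -0.053, against NIH3T3 most lie above 0, and against MC3T3 they lie on both sides of 0.

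How many members passed depended on the arrays used. With 1 array left out, 9 fell without the first and 8 without the second co-culture array, and 9 without the first and 11 without the second OP9 array, which was 11.6 to 15.9% of the members, against 16.5 to 17.6% of all genes tested in the same fits. Scaling the arrays to 1 median left 13 (18.8%, against 21% of all genes), and no filter on low values left 10 of 77 (13%, against 11.8%). In these settings the share of members that fell was near or below the background. It was above the background with quantile normalization (23, 33.3% against 21.9%), a filter at 200 (26 of 67, 38.8% against 29.7%), the 4 compared arrays alone (33, 47.8% against 34.1%) and limma's trend and robust options (34, 49.3% against 27.6%). It was near the background with a replicate block (18, 26.1% against 25.6%). With each probe set on its own, 32 of 123 member probe sets fell (26%, against 24.1% of all probe sets tested). The median of the members stayed below that of all genes or probe sets by 0.075 to 0.18 in all the settings just named.

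Among the 6 core subunits of complex I, Ndufs8 and Ndufs1 fell (33.3%, against 26.2% of all genes tested). Ndufs8 encodes a subunit that carries iron-sulphur clusters. It was at 3029.5 and 3146 on the OP9 arrays and at 2015 and 2042 on the co-culture arrays. The groups did not overlap, and the log2 difference was -0.61 ± 0.074 (SE, n = 2 and 2; adjusted p = 0.000578 from limma), a 1.52-fold fall. Ndufs8 passed in each of the 19 alternative settings. It was also the lowest group of the 4, since the NIH3T3 arrays were at 3302 and 3670.1 and the MC3T3 arrays at 3709.8 and 3733. Ndufs1 encodes the largest subunit, with further iron-sulphur clusters, and went from 1475 and 1512 to 1038 and 1118 (log2 difference -0.47 ± 0.071 SE, adjusted p = 0.00158 from limma). Ndufs1 was not followed over all the settings. The other core subunits, Ndufs3, Ndufs7, Ndufv1 and Ndufv2, had log2 differences from -0.20 to -0.15 and did not pass the test.

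Assembly factors of complex I gave the largest difference of all members. Ndufaf4, which takes part in an early step of assembly, was at 354 and 369 in OP9 and at 219 and 233 in co-culture, without overlap. Its log2 difference was -0.68 ± 0.12 (SE, adjusted p = 0.00308 from limma), a 1.6-fold fall that passed in each of the 19 alternative settings. Ndufaf2, a chaperone of a late assembly step, fell from 377 and 404 to 239 and 305 (log2 difference -0.53 ± 0.12 SE, adjusted p = 0.00999 from limma). It did not pass without the first co-culture array or without the second OP9 array (highest adjusted p 0.0692 from limma over the settings). The remaining factor among the members that fell was Ndufaf7, a methyltransferase for a core subunit, with a log2 difference of -0.25. Ndufaf7 was not followed over all the settings. Ndufaf1, Ndufaf3, Ndufaf5, Ndufaf6 and Ndufaf8 did not pass, with log2 differences from -0.24 to 0.082.

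Accessory subunits of complex I were the largest group of members. Of these, 10 of 27 fell (37%, against 26.2% of all genes tested) while none rose (against 16.6%). The largest differences were those of Ndufb1 (166 and 181 in OP9, 125 and 118 in co-culture, log2 difference -0.52) and Ndufb7 (3532 and 3514 in OP9, 2543 and 2489 in co-culture, log2 difference -0.49, adjusted p = 0.0014 from limma). Both sit in the membrane arm, which holds the proton pumps. Ndufa5, Ndufb2, Ndufb8, Ndufa9, Ndufa10, Ndufb6, Ndufb9 and Ndufa1 followed with log2 differences from -0.37 to -0.22. Ndufa1 did not pass with each probe set on its own (adjusted p = 0.0536 from limma). Only Ndufb6 and Ndufb9 of the 10 were followed gene by gene over all the settings. Of these, Ndufb6 did not pass in 12 of 19 settings and Ndufb9 in 6, and both failed when any 1 of the OP9 or co-culture arrays was left out. The 17 others did not pass, and Ndufs4, Ndufa6 and Ndufa7 were on the other side of 0 with 0.13, 0.13 and 0.044.

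In complex II, Sdhc, which anchors the enzyme in the membrane, was at 3294 and 3147 in OP9 and 2641 and 2727 in co-culture (log2 difference -0.26 ± 0.07 SE, adjusted p = 0.0199 from limma). The arrays did not overlap, but the gene did not pass when any 1 of these 4 arrays was left out (highest adjusted p 0.122 from limma over the settings). Its second probe set, at -0.14, did not pass either. Sdhaf2, which attaches the flavin cofactor to Sdha, also fell (-0.22, adjusted p = 0.0492 from limma), and did not pass in 12 of 19 settings. The flavoprotein Sdha (-0.08), the iron-sulphur subunit Sdhb (-0.017) and the second anchor Sdhd (-0.23) did not pass.

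In complex III, 4 of the 5 small accessory subunits fell (80%, against 26.2% of all genes tested) and none of the 3 core subunits passed. Uqcr11 went from 3903 and 3812 in OP9 to 2961 and 2831 in co-culture, a log2 difference of -0.41 ± 0.067 (SE, adjusted p = 0.00222 from limma) that passed in each of the 19 alternative settings. Uqcr10, Uqcrq and Uqcrb fell with log2 differences of -0.35, -0.29 and -0.22, Uqcr10 not passing in 3 of 19 settings and Uqcrq in 7 of 18, and the hinge protein Uqcrh did not pass (-0.06). The Rieske iron-sulphur protein Uqcrfs1 and the core proteins Uqcrc1 and Uqcrc2 did not pass either, with -0.19, -0.16 and -0.01. A difference between accessory and core subunits was not tested, and Uqcrb was not followed over all the settings.

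Complex IV held the only members that rose. Cox7a2l, also called SCAF1, joins complex III to complex IV in a supercomplex. It was at 3968 and 3599 on the OP9 arrays and at 4721 and 4975 on the co-culture arrays, without overlap. The log2 difference was 0.36 ± 0.077 (SE, adjusted p = 0.00771 from limma), a 1.28-fold rise. It did not pass without the second co-culture array or without the second OP9 array, where the highest adjusted p was 0.0642 (limma). The log2 difference stayed between 0.29 and 0.43 in all settings. The other member that rose was Cox8c, an isoform known from testis, at 144 and 139 in OP9 and 178 and 163 in co-culture (adjusted p = 0.0472 from limma), which did not pass in 8 of the 18 settings that tested it. Among the 9 common subunits tested, Ndufa4 (-0.25), Cox6b1 (-0.23) and Cox5b (-0.20) fell (33.3%, against 26.2% of all genes tested). They did not pass in 6, 10 and 12 of 19 settings, which for all 3 included each OP9 or co-culture array left out. Cox4i1, Cox5a, Cox6a1, Cox6c, Cox7a2 and Cox8a had log2 differences from -0.15 to -0.044 and did not pass.

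**Figure D2:**
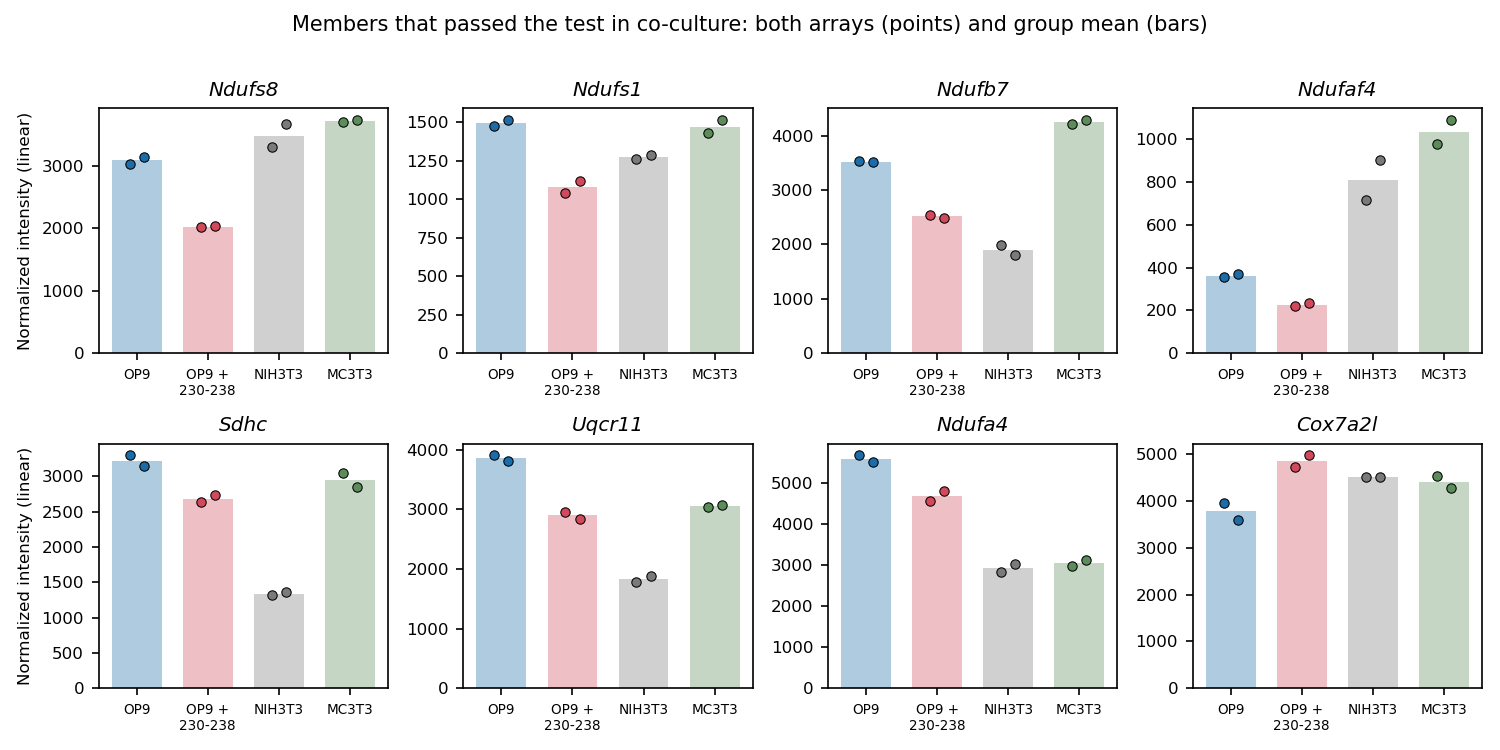
Normalized intensity (linear axes from 0, ranges differ by gene) of 8 members that passed in co-culture; points are the 2 arrays of a group and bars their mean. The co-culture points lie below both OP9 points for all genes shown except Cox7a2l, where they lie above.

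Most members had more than 1 probe set, which gave a second reading of the same RNA on the same arrays. Of 37 genes with at least 2 tested probe sets, 33 had all of them on the same side of 0 in co-culture, and none had passing probe sets of opposite sign. For Ndufs8, 5 of 6 probe sets passed and all 6 were lower, with log2 differences from -0.64 to -0.21. Both probe sets of Ndufaf4 (-0.68 and -0.78) and both of Ndufb7 (-0.49 and -0.39) were lower, and all 3 of Cox7a2l were higher (0.31 to 0.37). For Uqcr10 the other probe sets, which read lower levels, were at 0.047 and 0.21 and did not pass, so its fall rests on 1 probe set. Of the 15 such genes that passed, 6 passed with all their probe sets.

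**Figure D3:**
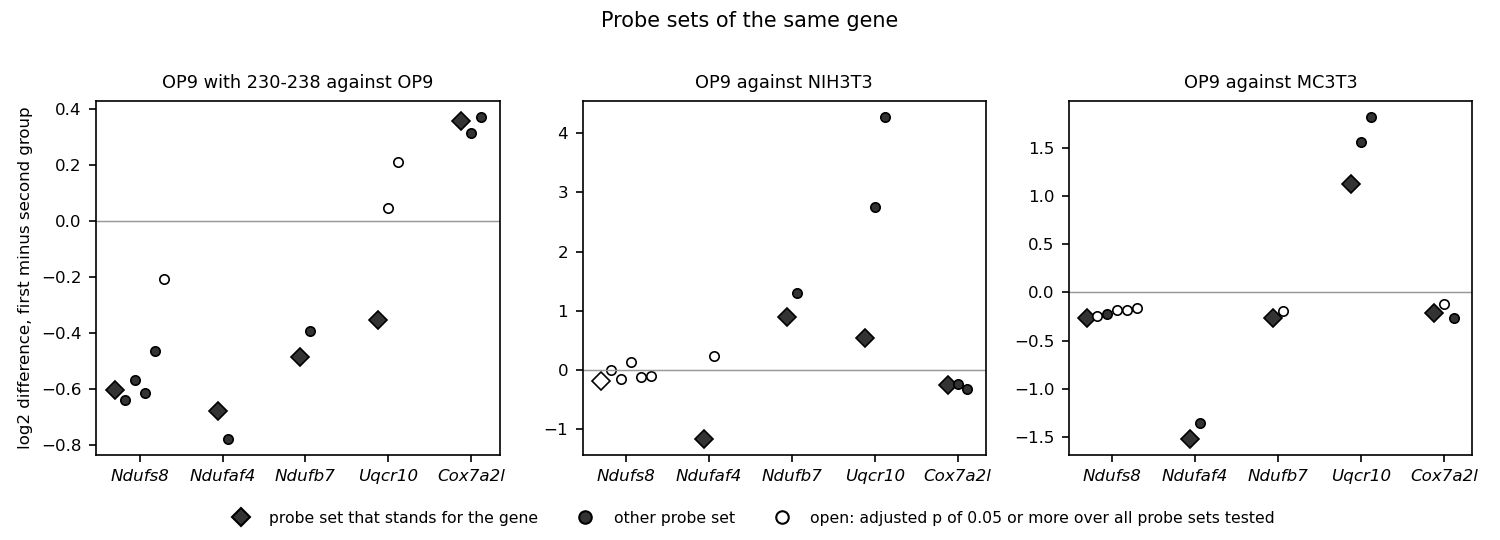
Log2 difference of each tested probe set of 5 members in the 3 comparisons (y axes differ in range; diamonds stand for the gene, circles are its other probe sets, filled symbols passed over all probe sets tested). The probe sets of Ndufs8, Ndufaf4, Ndufb7 and Cox7a2l lie together in co-culture, and those of Uqcr10 spread from 0.55 to 4.28 against NIH3T3.

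The stretches before the transcription start of 7 members are shown, so that members that moved in co-culture can be read beside their flanking sequence. Cox7a1, also shown, did not pass in co-culture (log2 difference 0.15). Windows were taken from the RefSeq promoter table (build GRCm38.p6), which held 65 windows for 63 of the 77 members, and only the 250 bases before the start were used. Both strands were searched for the NRF1 core CGCATGCG, the ETS core CCGGAAG bound by GABP, the YY1 core AAGATGG, the cAMP response element TGACGTCA and the ERR element TCAAGGTCA, and capitals mark a match. None of these motifs contains another. Sequences run 5′ to 3′ on the strand of the gene.
Ndufaf4 (chr4:24897833-24898082, + strand): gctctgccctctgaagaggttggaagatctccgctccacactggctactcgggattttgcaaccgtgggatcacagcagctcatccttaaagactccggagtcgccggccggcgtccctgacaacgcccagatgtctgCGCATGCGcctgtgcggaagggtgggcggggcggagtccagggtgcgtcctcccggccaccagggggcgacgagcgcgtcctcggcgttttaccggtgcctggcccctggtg
Ndufs8 (chr19:3912775-3913024, - strand): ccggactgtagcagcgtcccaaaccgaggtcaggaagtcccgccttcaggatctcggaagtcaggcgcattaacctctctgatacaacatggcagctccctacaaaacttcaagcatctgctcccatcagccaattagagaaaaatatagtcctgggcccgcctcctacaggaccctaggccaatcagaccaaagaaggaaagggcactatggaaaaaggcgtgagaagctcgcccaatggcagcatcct
Ndufb7 (chr8:83566508-83566757, + strand): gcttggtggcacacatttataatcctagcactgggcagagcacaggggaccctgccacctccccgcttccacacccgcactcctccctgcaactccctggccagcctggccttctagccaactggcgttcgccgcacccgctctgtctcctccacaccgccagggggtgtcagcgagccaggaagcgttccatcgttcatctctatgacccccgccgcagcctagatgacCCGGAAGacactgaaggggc
Ndufb2 (chr6:39592315-39592564, + strand): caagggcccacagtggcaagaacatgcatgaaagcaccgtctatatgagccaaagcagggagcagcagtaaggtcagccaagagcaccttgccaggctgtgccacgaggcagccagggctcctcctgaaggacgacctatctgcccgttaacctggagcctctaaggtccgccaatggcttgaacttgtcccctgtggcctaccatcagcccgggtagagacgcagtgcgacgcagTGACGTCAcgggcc
Uqcr11 (chr10:80406822-80407071, - strand): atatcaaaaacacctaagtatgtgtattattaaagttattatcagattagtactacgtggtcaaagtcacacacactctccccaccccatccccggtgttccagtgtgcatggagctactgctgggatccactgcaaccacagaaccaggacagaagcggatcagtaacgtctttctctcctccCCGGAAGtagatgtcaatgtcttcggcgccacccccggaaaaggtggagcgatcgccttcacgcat
Cox7a2l (chr17:83514334-83514583, - strand): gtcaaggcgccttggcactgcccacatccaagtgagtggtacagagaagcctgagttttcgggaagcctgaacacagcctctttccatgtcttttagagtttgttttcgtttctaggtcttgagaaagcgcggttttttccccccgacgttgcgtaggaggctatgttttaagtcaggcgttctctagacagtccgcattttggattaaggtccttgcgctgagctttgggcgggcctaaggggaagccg
Cox7a1 (chr7:30183921-30184170, + strand): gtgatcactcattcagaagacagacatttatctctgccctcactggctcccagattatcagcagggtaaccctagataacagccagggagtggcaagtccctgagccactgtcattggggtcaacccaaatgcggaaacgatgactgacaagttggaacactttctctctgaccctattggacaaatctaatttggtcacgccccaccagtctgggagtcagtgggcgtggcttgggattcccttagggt
Ndufaf4 held the NRF1 core, Ndufb7 and Uqcr11 the ETS core and Ndufb2 the cAMP response element, while none of these letters was found before Ndufs8, Cox7a2l or Cox7a1. Over all member windows, 12 of 65 (18.5%) held the ETS core, against 6.91% of the 32851 windows of all genes. The NRF1 core stood in 3 of 65 (4.62%, against 1.55%) and the cAMP response element in 3 of 65 (4.62%, against 1.55%). No member window held the YY1 core or the ERR element, which 4.49% and 0.387% of all windows held. Among the windows of members that fell in co-culture, 5 of 20 held the ETS core, and among those of members that did not pass, 7 of 39. The windows of the members had a median GC content of 57.6%, against 52.4% over all windows. A match is a run of letters and says nothing of binding in these cells.

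The partners of the chain were read from other lists of genes. Their counts are read beside the 26.2% of all genes tested that fell in co-culture and the 16.6% that rose. Of 9 electron carriers and further subunits, 6 fell (66.7%) and none rose. Cycs, encoding the cytochrome c that links complexes III and IV, was at 3960.2 and 4232 in OP9 and 2422 and 2709 in co-culture (log2 difference -0.68 ± 0.084 SE, adjusted p = 0.000636 from limma). Coq7, an enzyme of ubiquinone synthesis, went from 426 and 389.9 to 242 and 277 (-0.65), and Gpd2, which feeds electrons from glycerol phosphate, from 1165 and 1275 to 840.0 and 934 (-0.46). The count was 5 or 6 with any 1 of the OP9 or co-culture arrays left out. Of 16 genes of ATP synthase, 9 fell (56.2%) and 1 rose. Atp5g1 fell (-0.40) while its relative Atp5g2, which encodes the same c subunit, rose from 4677 and 4765 to 5875 and 5688 (0.29 ± 0.064 SE, adjusted p = 0.00845 from limma). The fallen ATP synthase genes numbered 1 without the first and 5 without the second co-culture array, and 2 without the first and 3 without the second OP9 array.

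Assembly factors with other names than the members numbered 31, of which 13 fell (41.9%) and 1 rose. Lrpprc, which stabilizes mitochondrial messenger RNA, was 2.05-fold lower (429.7 and 448 in OP9, 216 and 211 in co-culture, adjusted p = 0.000101 from limma). Tmem126b, a factor for complex I, went from 366 and 359 to 208 and 211 (-0.79), and the copper chaperone Sco1 fell too (-0.64). Nubpl, which inserts iron-sulphur clusters into complex I, was the only factor that rose (307 and 310.5 to 437 and 414, log2 difference 0.46).

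Of 14 regulators of mitochondrial content tested, 4 fell (28.6%, close to the 26.2% of all genes) and none rose. Ppargc1a, the coactivator PGC-1 alpha, was at 131 and 109 on the OP9 arrays and at 20.5 and 22.2 on the co-culture arrays, while NIH3T3 arrays were at 13.2 and 13.5 and MC3T3 arrays at 18.8 and 20.5, near the bottom of the scale. It was tested only because OP9 reached 100, so it had to differ, and its level is given as a description although it is 1 of the 4 counted. Ppargc1b fell from 85.4 and 83.8 to 48.4 and 42.9 (-0.89), Sirt1 from 312 and 333 to 186 and 198 (-0.75), and the mitochondrial RNA polymerase Polrmt fell as well (-0.33). Ppargc1b was below 100 on all 4 of the arrays compared, so it reached the filter only through the other lines. The factors Nrf1 (-0.059), Gabpa (-0.41), Esrra (-0.084), Pprc1 (0.07) and Tfam (0.091) did not pass.

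The TCA cycle, which supplies the chain with NADH and succinate, and glycolysis, which makes pyruvate in the cytosol, differed in sign. Of 18 genes of the TCA cycle and pyruvate dehydrogenase, 9 fell (50%) and none rose, led by Idh3a (1665 and 1548 in OP9, 907 and 929.9 in co-culture, -0.81), Pdhx (-0.66) and Dld (-0.38). Of 14 genes of the glycolysis list, 13 rose (92.9%) and 1 fell, with a median log2 difference of 0.37. This list also holds the glucose transporter Slc2a1 and the kinase Pdk1, which are not enzymes of glycolysis. Pdk1, the kinase that inhibits pyruvate dehydrogenase, rose 2.19-fold (433 and 374 in OP9, 870.1 and 890.3 in co-culture, adjusted p = 0.00078 from limma). Pgk1 rose from 4866 and 4792 to 8527 and 8098 (0.78) and Pfkl from 933 and 911 to 1531 and 1545 (0.74), while hexokinase Hk2 fell (-0.37), which did not pass under quantile normalization or median scaling. The median of glycolysis stayed between 0.33 and 0.44 under quantile normalization, median scaling and with any 1 of the OP9 or co-culture arrays left out, and 6 to 9 genes rose in the latter fits. The TCA count was 3 to 5 in the same fits and 6 and 4 under the 2 scalings. Of 20 genes of mitochondrial import and content, 7 fell (35%, against 26.2% of all genes) and none rose, led by the ADP/ATP carrier Slc25a5 (4795 and 4899 to 3125 and 3047, -0.65), and the count was 1 or 2 with an OP9 or co-culture array left out. Median scaling left 3 lower and 1 higher.

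**Figure D4:**
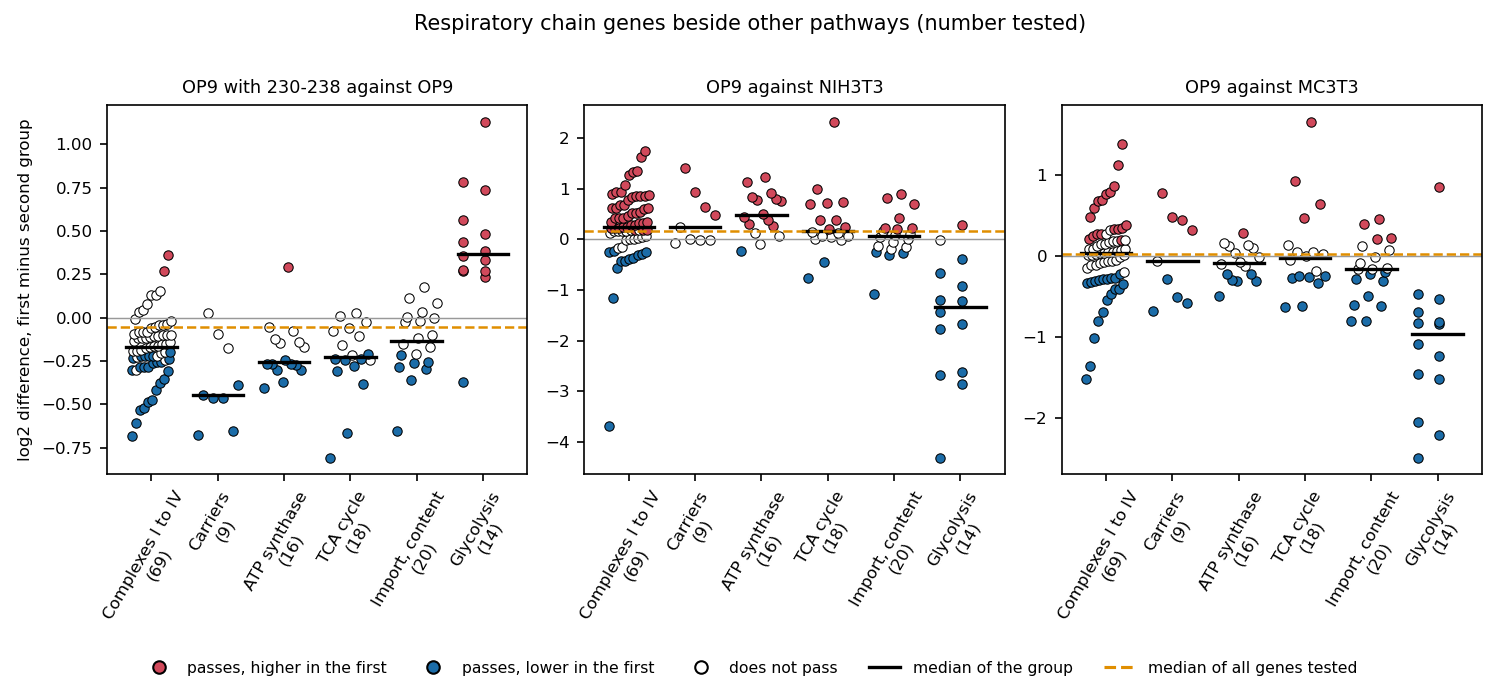
Log2 differences of the 69 respiratory chain genes beside 5 other lists in the 3 comparisons (y axes differ in range; each point is a gene, black bars are medians, the dashed line is the median of all genes tested). Glycolysis lies above 0 in co-culture for 13 of 14 genes and below 0 for most genes of OP9 against both other lines, opposite in sign to most respiratory chain genes in co-culture.

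Fat cell markers moved in the same comparison. All 7 tested fell in co-culture (100%, against 26.2% of all genes tested), and Cidec was tested only because OP9 reached 100. The summed level of the fat cell markers was 36481 and 36608 on the OP9 arrays and 11899 and 12006 on the co-culture arrays. In bulk RNA, fewer cells of a type and less RNA per cell cannot be told apart. Of the pre-B cell markers, 9 were on the array, 3 were tested and 1, Ebf1, fell (-0.54), and their sum was 1626 and 1883 in co-culture and 2361 and 2145 in OP9, most of it from Ebf1, which stroma also expresses (2146 and 1922 in OP9). Vpreb1 was at 77.7 and 76 in co-culture and 25.8 and 21.6 in OP9, Ptprc at 34.6 and 31.1 against 8.93 and 8.58, and Rag1 at 10.8 and 13.1 against 10.6 and 11. The part of the fat cell programme or of remaining pre-B cells in the differences of the members was not tested.

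OP9 was next compared with NIH3T3 to place the stroma line beside a fibroblast line. More members were higher in OP9 than lower. Of the 69, 42 were higher (60.9%, against 46.2% of all genes tested) and 12 lower (17.4%, against 31.7%), and 6 and 2 passed at 2-fold (20.5% and 10.3% of all genes). The median log2 difference of the members was 0.25, but that of all genes tested was 0.16, so relative to all genes the members were 0.088 higher. Other scalings made the split smaller. Quantile normalization gave 32 higher and 14 lower, and scaling to 1 median gave 28 and 16, while the share of higher among all calls went from 59.3% to 51.1% and 48.4%. Complex I had 25 of 41 higher and 6 lower, complex II 5 of 8 and 1, complex III 5 of 8 and 1, and complex IV 7 of 12 and 4. Under median scaling these counts were 17 and 8, 3 and 2, 4 and 2, and 4 and 4.

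In complex I the assembly factor Ndufaf3 was at 528 and 480.4 in OP9 and 133 and 169 in NIH3T3, a log2 difference of 1.75 ± 0.13 (SE, adjusted p = 8.43e-06 from limma) and 3.36-fold higher. The accessory subunits Ndufa13, also known as GRIM-19, and Ndufa3 were more than 2-fold higher, Ndufa13 with 7141 and 6318 against 2663 and 2659 and Ndufa3 with 7053 and 6236 against 2533 and 2700.0. The NIH3T3 arrays were the lowest of all 8 for these 3 genes. Of the 27 accessory subunits, 18 were higher (66.7%, against 46.2% of all genes tested) and 2 lower (7.41%, against 31.7%). The lower ones were Ndufb9 (-0.25) and Ndufb11 (-0.30). The core subunits were split, with Ndufv2 (0.25) and Ndufs1 (0.23) higher and the flavoprotein Ndufv1 (-0.43) and Ndufs3 (-0.36) lower. Ndufaf4 was lower in OP9 (354 and 369 against 714 and 905, log2 difference -1.15 ± 0.12 SE, adjusted p = 5.06e-05 from limma), but its second probe set was at 0.24 and did not pass.

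Complex II differed by subunit. Sdhc was at 3294 and 3147 in OP9 and 1315 and 1362 in NIH3T3, 2.41-fold higher (adjusted p = 1.58e-06 from limma), and its second probe set at 0.68 also passed. The partner Sdhb was lower (1587 and 1519.5 against 2062 and 2096, log2 difference -0.42 ± 0.07 SE, adjusted p = 0.000817 from limma). Sdhd was higher (0.33) and Sdha did not pass (0.015, adjusted p = 0.838 from limma), while scaling to 1 median put Sdha at -0.18 and past the test. The assembly factors Sdhaf1 (368 and 388 against 104 and 143, 1.63) and Sdhaf4 (0.94) were higher. In complex III, Uqcr11 (1.08), Uqcrq (0.78) and Uqcr10 (0.55) were higher and Uqcrh was lower (4235 and 4271 against 6409.6 and 6188, -0.57). The 3 probe sets of Uqcr10 gave 0.55, 2.76 and 4.28, all passing, so the direction held and the size did not.

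In complex IV, 7 of the 9 common subunits were higher in OP9 (77.8%, against 46.2% of all genes tested). They were led by Ndufa4 (5684 and 5520.2 against 2849.9 and 3043, 0.93), Cox6a1 (12840.4 and 12976 against 6969 and 7353, 0.85) and Cox5b (9601 and 9478 against 5203 and 5508, 0.83). Cox5a was lower (-0.23), and so was the supercomplex factor Cox7a2l (-0.25). Cox7a1, the isoform of heart and skeletal muscle that also marks brown fat, was at 181 and 170.1 on the NIH3T3 arrays, at 12.9 and 14.5 on the OP9 arrays and at 14.5 and 15.9 in co-culture. It was tested only because NIH3T3 reached 100, so it had to differ there, and its levels are given as a description although it is 1 of the 12 counted as lower. The broadly expressed isoform Cox7a2 was at 7371 and 7413 in OP9 and 6422 and 6513 in NIH3T3 (0.19), a difference that median scaling brought to -0.00017.

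OP9 was also compared with MC3T3, the osteoblast-like line. Here the members went both ways and their median was close to 0 (0.039, with 0.032 for all genes tested). Of the 69, 18 were higher in OP9 (26.1%, against 35.6% of all genes tested) and 19 lower (27.5%, against 31%), and 2 and 3 passed at 2-fold (10.5% and 9.41% of all genes). Complex I had 9 of 41 higher and 15 lower, complex II 3 of 8 and 1, complex III 3 of 8 and none, and complex IV 3 of 12 and 3. Without the second MC3T3 array, the one described as sorted cells, the median of the members was 0.029, against 0.038 for all genes tested. Without the first MC3T3 array these medians were 0.042 and 0.030.

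The largest differences in favour of OP9 over MC3T3 were those of 2 accessory subunits. Ndufa6 was at 2793 and 2939 in OP9 and 1110.3 and 1079 in MC3T3, 2.62-fold higher (log2 difference 1.39 ± 0.066 SE, adjusted p = 1.08e-06 from limma), and MC3T3 was the lowest of the 4 groups. Uqcr10 was at 3377 and 3272 against 1576 and 1476 (1.12 ± 0.075 SE, adjusted p = 6.46e-06 from limma), and its other probe sets at 1.56 and 1.82 passed too. Ndufa4 (5684 and 5520.2 against 2987 and 3123, 0.87), Sdhaf3 (0.80), Ndufb9 (0.77), Ndufa3 (0.69) and Cox6c (0.68) were also higher.

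Of the 8 assembly factors of complex I among the members, 5 were lower in OP9 than in MC3T3 (62.5%, against 31% of all genes tested) and none higher (against 35.6%). The 31 assembly factors with other names, not all of complex I, were counted apart. Of these, 12 were higher in OP9 (38.7%), Tmem126b among them, and 7 lower (22.6%). Ndufaf4 was at 354 and 369 in OP9 and 979 and 1089.7 in MC3T3, 2.86-fold lower (log2 difference -1.51 ± 0.12 SE, adjusted p = 1.6e-05 from limma), and both probe sets passed (-1.51 and -1.35). Ndufaf6 was at 122 and 112 against 241 and 229 (-1.01), and Ndufaf5, Ndufaf7 and Ndufaf8 were lower by smaller amounts (-0.47, -0.31 and -0.33). Among subunits, Ndufb6 (2621 and 2473 against 4562 and 4312, -0.80), Sdhb (1587 and 1519.5 against 2418 and 2616, -0.70) and Cox5a (4569.9 and 4790.1 against 6886 and 6702, -0.54) were lower. Of the core subunits of complex I, Ndufv1 (-0.41), Ndufv2 (-0.41) and Ndufs8 (-0.27) were lower. Cox7a1, counted among the lower members, was at 34 and 35.7 in MC3T3 and below 100 in both lines.

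**Figure D5:**
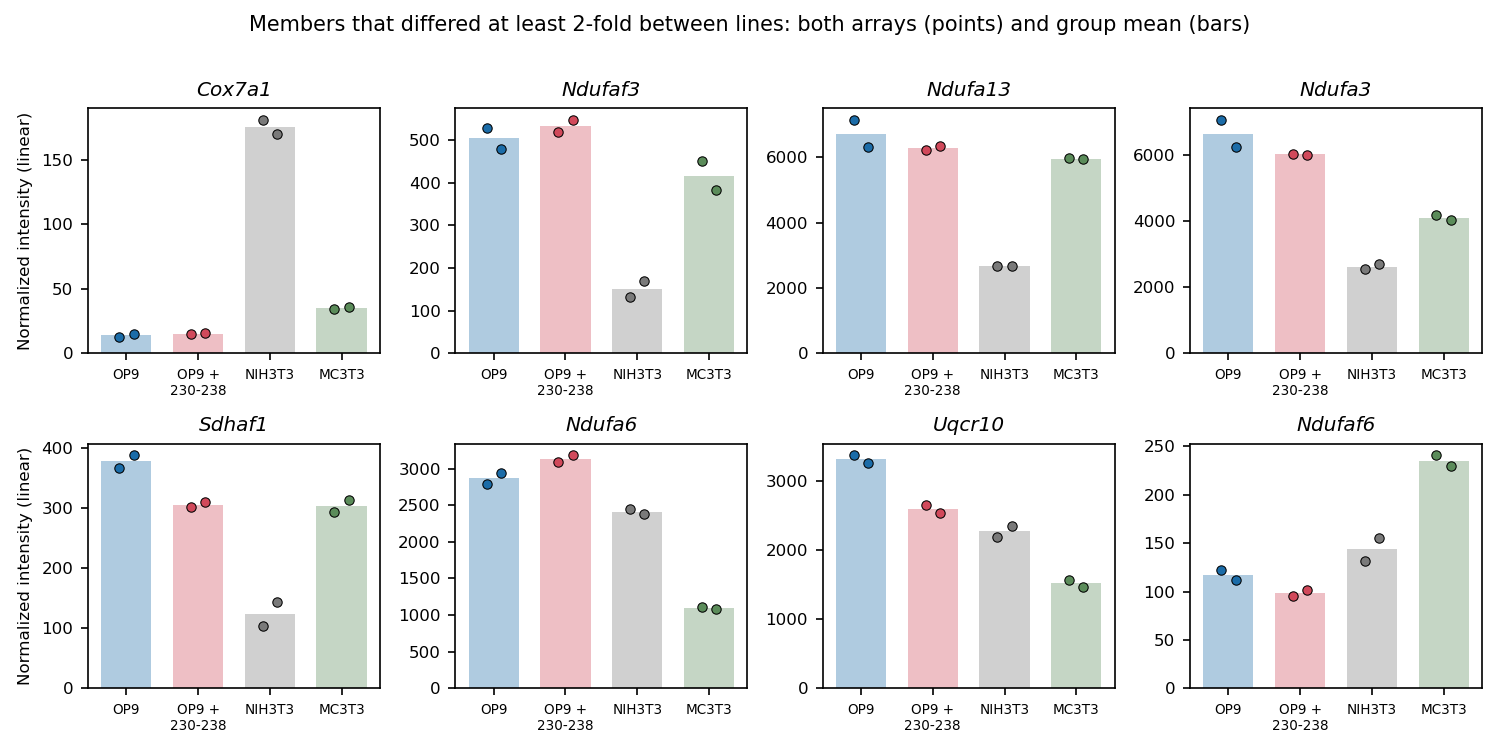
Normalized intensity (linear axes from 0, ranges differ by gene) of 8 members that differed at least 2-fold between OP9 and another line; points are the 2 arrays of a group and bars their mean. NIH3T3 is lowest for Ndufaf3, Ndufa13, Ndufa3 and Sdhaf1 and highest for Cox7a1, and MC3T3 is lowest for Ndufa6 and Uqcr10 and highest for Ndufaf6.

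The 3 comparisons share the OP9 arrays, so their values are set side by side and not counted against each other. Ndufaf4 gave -0.68 in co-culture against OP9, and OP9 gave -1.15 against NIH3T3 and -1.51 against MC3T3. By this probe set its level was highest in MC3T3, with NIH3T3, OP9 and co-culture below in this order, and no 2 groups overlapped. For Uqcr11 the values were -0.41, 1.08 and 0.34, so OP9 was the highest group, co-culture (2961 and 2831) and MC3T3 (3043 and 3067) lay close together and NIH3T3 was the lowest. Cox7a2l went the other way, with 0.36, -0.25 and -0.22. OP9 was its lowest group, and the means of the other 3 groups lay between 4397 ± 180.3 (SD, n = 2) in MC3T3 and 4848 ± 179 (SD, n = 2) in co-culture.

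The other lists were read between the lines in the same way, beside 46.2% of all genes higher and 31.7% lower against NIH3T3 and 35.6% and 31% against MC3T3. Of 16 ATP synthase genes, 12 (75%) were higher and 1 lower against NIH3T3, led by Atp5g1 (2408 and 2255 against 975 and 1002, 1.24), and 1 was higher and 6 lower against MC3T3. The carriers had 4 of 9 (44.4%) higher and none lower against NIH3T3, led by the ubiquinone factor Coq9 (1.41), and 4 and 4 against MC3T3. Of the other assembly factors, 16 of 31 (51.6%) were higher and 7 lower against NIH3T3, and 12 and 7 against MC3T3. Of the regulators, 6 of 14 (42.9%) were higher and 3 (21.4%) lower against NIH3T3, and 4 (28.6%) and 3 (21.4%) against MC3T3, all below the shares of all genes. The TCA cycle had 9 of 18 (50%) higher and 2 lower against NIH3T3, and 4 and 7 against MC3T3. Import and content had 7 of 20 (35%) higher and 4 (20%) lower, and 4 (20%) and 9 (45%). The glycolysis list, with Slc2a1 and Pdk1, was lower in OP9 for 12 of 14 genes against NIH3T3 (median -1.33) and 13 of 14 against MC3T3 (median -0.97). These counts of lower genes were the same under quantile normalization and median scaling. The glucose transporter Slc2a1 was at 323 and 376 in OP9, 7143 and 6637 in NIH3T3 and 1886 and 2038 in MC3T3. Pdk1 was at 433 and 374 in OP9, 2484 and 2646 in NIH3T3 and 1955 and 1421 in MC3T3.

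Of the 8 members not tested, 6 are isoforms of restricted tissues. Cox4i2, Cox6b2, Cox7b2, Cox8b and Ndufa4l2 were below 100 on all 8 arrays, and Cox6a2, the isoform of heart and skeletal muscle, reached 107 and 90.8 in NIH3T3. The other members, Cox7c and Ndufb4, encode subunits that every cell uses, yet in OP9 the probe set of Cox7c read 57.3 and 60 and that of Ndufb4 13.9 and 13.9. Both of these readings are from probe sets named by a single symbol, and 10 probe sets with several symbols, some of which name Ndufb4 or Ndufa11 beside a near copy, were left out. The common isoforms read Cox4i1 at 9014 and 8332, Cox6a1 at 12840.4 and 12976, Cox6b1 at 10249 and 9696, Cox7a2 at 7371 and 7413 and Cox8a at 4737 and 4459.9 in OP9. Levels of different probe sets are not compared. Of the 69 tested members, 13 were read by probe sets of a kind that can bind related transcripts, Ndufs8 and Ndufa3 among them, and leaving such probe sets out gave 22 members lower and 2 higher in co-culture.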

How the data were processed

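RNA of 4 groups was measured on 8 Affymetrix mouse arrays, 2 per group, and the authors deposited 1 table holding, for 45101 probe sets, normalized intensity on a linear scale. The paper names RMA normalization with RMA Express, affylmGUI and dChip, and the sources used here do not give which of them wrote the table. Probe sets were named through the platform annotation (34958 with 1 symbol, 932 with several, 9211 with none), and all 77 members matched RefSeq by gene number. The log2 of each value was used, no pseudocount being added. For each gene the brightest probe set by mean log2 was kept, and a level of at least 100 was required on 2 arrays. Group means were fitted with limma 3.58.1 in R 4.3.3 (4 residual degrees of freedom, all groups sharing 1 spread), adjustment was by Benjamini and Hochberg over all 10084 genes, and the model was checked on simulated data. Figures were drawn with matplotlib 3.10.9.

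The members and lists were chosen with earlier results of these data known, so counts and medians over them are descriptions without a p. The lists were ATP synthase, electron carriers, other assembly factors, regulators, TCA cycle, glycolysis (with Slc2a1 and Pdk1), import and content, thermogenesis, and markers of pre-B, fat and mesenchymal cells. Named genes were, for each comparison and complex, up to 3 members in each direction that passed without overlap, the isoform families, the Sdh subunits, up to 3 passing genes of each list in each direction, and 7 regulators. Others complete a group or carry a printed promoter, and were chosen after their values were seen. Tried as alternatives were the filter (none, or 200), the scaling (quantile, or 1 median), 16 added before the log, a fit of only the 4 arrays compared, limma's trend and robust options, a replicate block, other treatments of probe sets (their mean, each alone, or without _x_at and _s_at types), and the arrays left out 1 at a time. No batch is named in the labels, and no column was left out.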

Additional observations from a re-analysis of the deposited data

How the results depend on the processing

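Over 19 settings, 8 of them with 1 array left out, the 108 differences of the 41 named members gave 2037 values. Of these, 1857 counted as unchanged, 144 no longer passed, 32 passed newly and 4 turned. A turn was counted only where the main or the other value passed. A change of sign between values that did not pass counted as unchanged, as for Cox4i1 against MC3T3 (0.011, lowest -0.046). The 4 counted turns were differences between OP9 and NIH3T3. Median scaling put Sdhaf2 at -0.0027, Cox7a2 at -0.00017 and Sdha at -0.18, and the mean of probe sets put Cox8c at 0.36 (adjusted p = 0.0133 from limma). In co-culture, 1 member rose with no filter, with a filter at 200, with a trend and robust prior and with the mean of probe sets, and 0 to 2 with 1 array left out. The members that fell numbered 10 with no filter, 13 with median scaling and 8 to 30 with 1 array left out, and the median was -0.098 with median scaling. Against NIH3T3, 1 member was 2-fold lower with averaged probe sets and also at a filter of 200, and 1 to 2 with 1 array left out (1 without the second NIH3T3 array). The median was 0.15 with quantile normalization, 0.057 with median scaling and 0.30 with the mean of probe sets, and with each probe set alone 69 of 123 probe sets were higher, 13 of them 2-fold. Against MC3T3, each probe set alone gave 33 higher and 33 lower, 5 and 5 of them 2-fold, a pseudocount of 16 left 1 member 2-fold lower, and 12 to 19 were lower with 1 array left out. The cause of these changes was not tested, apart from the larger number of probe sets than genes.

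Replicate numbers were shared between groups, but same-numbered arrays did not all deviate together (correlations over genes from -0.0039 to 0.18), so the replicate block was an alternative only. It gave 18 members lower in co-culture (26.1%, close to the 25.6% of all genes) and 2 higher (2.9%, against 16.4%). Against NIH3T3 it gave 41 higher (59.4%, against 46.1%) and 12 lower (17.4%, against 31.8%). Against MC3T3 it gave 19 and 19 (27.5% each, against 35.6% and 31%). Array brightness near the bottom of the scale limits what can be said of Cox7a1, Ppargc1a, Ppargc1b and the members not tested.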

Other observations

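Genes of thermogenesis were near the bottom of the scale, with 1 exception. Of 6 on the array only Dio2, which activates thyroid hormone, reached the filter, at 142 and 129 in MC3T3 against 23.4 and 19.8 in OP9, and since it was tested only through MC3T3 it had to differ, so no test is given. The uncoupling protein Ucp1 was at 21.9 and 26.6 in OP9 and at 25 and 23.2 in co-culture, and Cidea at 20.8 and 22.4 in OP9 and 21.1 and 23.9 in co-culture.

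Of 5 mesenchymal markers, 1 fell in co-culture (20%, against 26.2% of all genes tested). It was Pdgfrb (2994 and 3169 in OP9, 1571 and 1683 in co-culture, log2 difference -0.92 ± 0.095 SE, adjusted p = 0.000255 from limma), while the collagens Col1a1 (-0.041) and Col1a2 (0.0089) did not pass. Against NIH3T3, 3 of these markers were higher in OP9 and none lower, and against MC3T3, 3 were higher and 2 lower, one of them Thy1, which was tested only through MC3T3. All 7 fat cell markers tested were higher in OP9 than in either other line. Over all genes tested, 46.2% were higher against NIH3T3 and 35.6% against MC3T3. The summed level of these markers was 153 and 138 on the MC3T3 arrays, so most reached the filter only through other groups. Adipoq was tested only through the arrays of OP9 cells. The differences from MC3T3, and that of Adipoq from NIH3T3, are therefore given as a description. Of the 3 pre-B cell markers tested, Ebf1 was higher in OP9 than in NIH3T3 (5.30) and MC3T3 (3.96), while Blnk was at 27.5 and 29.7 in OP9 and 132 and 232 in NIH3T3, and Igll1 at 54 and 67.5 in OP9 and 144 and 102 in NIH3T3.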
